A study of Mus musculus with 12 samples.

Results

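To examine the loss of NT4 in the geniculate ganglion, the cranial ganglion from which taste neurons reach the tongue and palate, 3 arrays titled NT4 knockout were set against 3 arrays titled NT4 wild type. These are 6 of the 12 arrays of the series, chosen by their titles. All 6 RNA samples came from embryos of the 129 strain at embryonic day 14.5. The other 6 arrays are BDNF knockout and BDNF wild-type ganglia of the same age on the C57BL/6J background, and they enter here to estimate the spread between replicates and for the test of a difference between the 2 knockouts. The question of the series is whether removing BDNF or NT4 alters expression in different ways. The labels give no detail of the deleted part of the gene, nor do the sources used here give the number of embryos per RNA sample. The arrays are labelled biological replicates, but nothing says that the samples came from separate litters, so p-values measure only the spread between these samples.

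NT4, encoded by Ntf5, is a secreted neurotrophin. Like BDNF it binds the receptor tyrosine kinase TrkB (Ntrk2), and all neurotrophins also bind the p75 receptor (Ngfr). Gustatory neurons of the geniculate ganglion express TrkB and depend on both ligands for survival during development, and activated TrkB signals through the MAP kinase, PI3 kinase and phospholipase C gamma pathways.

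Each value below is an intensity, the linear brightness of a probe set as deposited by the authors, and a log2 change is the mean log2 intensity of NT4 knockout arrays minus that of NT4 wild-type arrays, with limma's standard error (SE). A probe set passed when its p-value, adjusted by the Benjamini-Hochberg method over all 45037 probe sets tested, was under 0.05. Median intensities were 184 to 201 on NT4 knockout arrays and 169 to 182 on NT4 wild-type arrays, so the knockout arrays were a little brighter as a whole. Log2 values correlated at 0.969 to 0.977 among NT4 knockout arrays, at 0.981 to 0.985 among NT4 wild-type arrays and at 0.970 to 0.982 between the groups. NT4 wild-type replicate 2 stood apart in Y-linked genes, as Eif2s3y read 646, 206 and 515 on NT4 knockout arrays and 322, 15.9 and 561 on NT4 wild-type arrays. Markers of sensory neurons were bright. The ATP receptor gene P2rx3, carried by taste and other sensory afferents, read 7400, 7695 and 8621 in NT4 knockout ganglia and 8453, 8297 and 7759 in NT4 wild-type ganglia. Phox2a, a factor of visceral sensory neurons such as those of taste, read 397, 404 and 385 in the knockout and 469, 419 and 366 in the wild type, and the NT4 wild-type mean was 0.342 of the BDNF wild-type mean. The somatosensory genes Avil and Pou4f1 were detected as well, with means of 2773 and 1827 in the knockout and 2750 and 1741 in the wild type, so these markers do not set the geniculate ganglion apart from other sensory ganglia.

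Few genes differed beyond the spread between arrays. Of 45037 probe sets 2 passed, a share of 0.00444%, 1 higher and 1 lower in the knockout (0.00222% each). At an unadjusted p under 0.05 there were 2530 probe sets (5.62%), 1811 higher (4.02%) and 719 lower (1.6%), and that split was 821 higher and 1970 lower with every array centred on its median, and 1071 higher and 1501 lower after quantile normalization. Over all probe sets the log2 change had a median of 0.05, and of −0.07 with centred arrays, so a small change of 1 sign shared by many genes cannot be read from these values. The middle 90% of log2 changes lay between −0.35 and 0.59. With 3 arrays a group the median half-width of a 95% interval, before any adjustment, was 0.45 on the log2 scale. For a typical probe set changes below that size could not be told from 0. Passing the adjusted threshold took far larger ones, as −1.07 for Lin7b (SE 0.18) did not pass (limma adjusted p = 0.375).

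The gene that fell was Slc6a2, which encodes the noradrenaline transporter, the membrane protein that takes noradrenaline back up into neurons. Its probe set 1442449_at read 864, 926 and 942 in NT4 knockout ganglia and 2144, 2190 and 2182 in NT4 wild-type ganglia. All 3 knockout arrays lay far below all 3 wild-type arrays, and within each group the arrays were close together. It fell by 1.25 on the log2 scale (SE 0.11, limma adjusted p = 0.0113), 2.38-fold lower on the linear scale. The gene, on chromosome 8, has 3 more probe sets on the array. The next, 1460129_at, read 345, 220 and 391 in the knockout and 810, 880 and 700 in the wild type (−1.36, adjusted p = 0.375). The third, 1421641_at, read 34.0, 46.9 and 63.2 in the knockout and 108, 141 and 93.5 in the wild type (−1.27, adjusted p = 0.818). On both the groups were separate in the same direction. The fourth, 1447311_at, gave the opposite sign, with 226, 305 and 252 in the knockout and 228, 215 and 219 in the wild type (0.23, adjusted p = 0.940). The call was lost in a fit of the 6 arrays of the NT4 line alone (limma adjusted p = 0.264) and with the replicate block (0.478). It was also lost with NT4 knockout replicate 2 or 3 left out (0.108 and 0.0733), with NT4 wild-type replicate 1, 2 or 3 left out (0.122, 0.144 and 0.0638), and with NT4 wild-type replicate 2 left out together with BDNF wild-type replicate 2, whose Y-linked signal was low too (0.479), while the log2 change stayed between −1.28 and −1.25 in these fits.

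**Figure D1:**
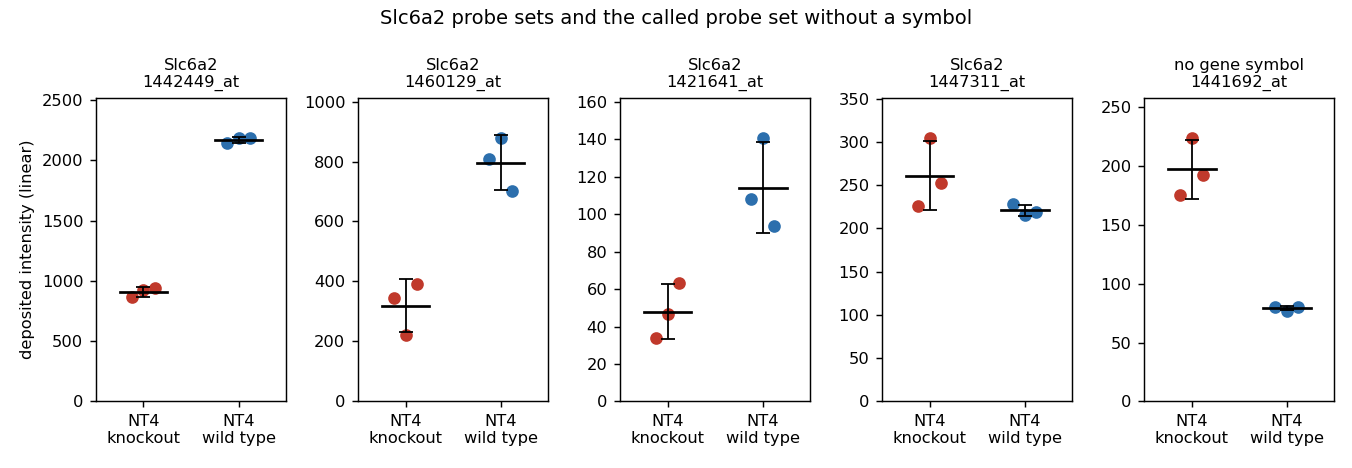
Deposited linear intensity (vertical axis, starting at 0) of the 4 Slc6a2 probe sets and of 1441692_at on each NT4 knockout array (left, red) and NT4 wild-type array (right, blue). Points are arrays, the long bar is the mean and the error bar the SD of 3 arrays. On 3 Slc6a2 probe sets every knockout array is below every wild-type array, on 1447311_at the groups overlap, and on 1441692_at every knockout array is above.

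The probe set that rose, 1441692_at, has no gene symbol in the annotation used here. It read 175, 224 and 192 in NT4 knockout ganglia and 80.4, 77.1 and 80.2 in NT4 wild-type ganglia. The knockout arrays were all above the wild-type arrays, and the rise was 1.31 (SE 0.13, limma adjusted p = 0.0316). The call was lost in the fit of the NT4 line alone (adjusted p = 0.442), with centred arrays (0.0706), with an intensity trend in the variance prior (0.0782), with the replicate block (0.710), without the 2 arrays of low Y-linked signal (0.524), and without any 1 of NT4 wild-type replicates 1 to 3, NT4 knockout replicates 2 and 3, BDNF wild-type replicates 1 to 3 or BDNF knockout replicates 1 and 3 (0.0712 to 0.231).

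Among 22 measured genes of noradrenergic and sympathetic neurons Slc6a2 was the only one to pass. It was also the only 1 of all 18193 genes, each taken by its brightest probe set (0.0055%). The list was written with earlier results of these data known, so that count is no result about the list. The list's median log2 change was −0.01 and 10 of 22 were above 0, against 55.8% of all genes. Th, tyrosine hydroxylase, the first enzyme of catecholamine synthesis, read 277, 352 and 364 in NT4 knockout ganglia and 512, 529 and 377 in NT4 wild-type ganglia. Its groups did not overlap, though knockout replicate 3 and wild-type replicate 3 were near each other, and its change of −0.51 (SE 0.22) did not pass (adjusted p = 0.883). Dbh, which turns dopamine into noradrenaline, was dim and overlapped, at 74.4, 145 and 69.5 in the knockout and 93.4, 92.7 and 84.2 in the wild type. Slc18a2, which loads monoamines into vesicles, read 739, 1133 and 1142 in the knockout and 896, 957 and 1125 in the wild type, and overlapped too. The transcription factors of sympathetic neurons Hand2 (0.11), Phox2a (−0.07) and Gata3 (−0.07), of which Gata3 was dim, had overlapping groups. Other members read higher. Npy, a neuropeptide of sympathetic neurons, read 109, 103 and 142 in the knockout and 83.3, 91.0 and 85.5 in the wild type, separate but not past the threshold (0.44, adjusted p = 0.892). Ddc, which makes dopamine from L-DOPA, was dim and overlapped, at 88.3, 138 and 119 in the knockout and 94.5, 64.3 and 63.8 in the wild type (0.63, adjusted p = 0.895). In bulk ganglia fewer cells of a type and less RNA per cell cannot be told apart.

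The level of the targeted gene could not check the genotype. Ntf5, on chromosome 7, read 37.2, 42.3 and 36.2 in NT4 knockout ganglia and 33.8, 42.8 and 46.6 in NT4 wild-type ganglia. The groups overlapped at a level far below the array medians (log2 change −0.08, SE 0.16, 95% interval −0.44 to 0.28), and since the deleted part is not given this probe set checks nothing. Bdnf, the other ligand measured, read 162, 250 and 176 in the knockout and 204, 167 and 182 in the wild type on 1422169_a_at, and 347, 373 and 352 in the knockout and 364, 473 and 238 in the wild type on 1422168_a_at. Neither probe set separated the groups (0.07 and 0.05).

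No receptor probe set passed, and some read higher in the knockout. The brightest Ntrk2 probe set, 1435305_at, read 5063, 5537 and 5949 in NT4 knockout ganglia and 5799, 5812 and 5198 in NT4 wild-type ganglia. It overlapped fully (−0.02, SE 0.11, 95% interval −0.27 to 0.22). On 2 of the 8 Ntrk2 probe sets the groups separated upwards without passing. These were 1435196_at, with 624, 647 and 746 in the knockout and 514, 398 and 518 in the wild type (0.50, adjusted p = 0.841), and 1420837_at, with 377, 443 and 475 in the knockout and 233, 314 and 277 in the wild type (0.66, adjusted p = 0.852). The other 5 had log2 changes of 0.05 to 0.35 with overlapping groups. Ngfr read 5230, 5962 and 6087 in the knockout and 5656, 5697 and 5690 in the wild type (0.02), and its 2 other probe sets had −0.06 and −0.05. Sort1, sortilin, a co-receptor of p75, read 1831, 2636 and 2716 in the knockout and 1674, 1405 and 1609 in the wild type on 1423363_at. These groups were separate (0.60, SE 0.23, adjusted p = 0.857), while the 2 other Sort1 probe sets overlapped (0.15 and 0.07). For Ntrk3, the receptor of NT3, the brightest probe set read 1615, 2135 and 3344 in the knockout and 1845, 1326 and 1487 in the wild type (0.56, SE 0.35), an overlap set by knockout replicate 1. On 3 dimmer Ntrk3 probe sets the groups were separate upwards without passing, at 0.53 (1422329_a_at), 0.64 (1433825_at) and 0.38 (1455917_at). Over all 31 probe sets of the 8 receptor genes measured, 6 had an unadjusted p under 0.05, all of them higher, against 4.02% of all probe sets that were higher at that threshold, and the probe sets of 1 gene share their RNA and are not independent.

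Downstream of the receptors no gene passed. By their brightest probe sets 0 of 22 measured genes of the Trk signalling core (adaptors, kinases and their targets) passed in limma's fit and 0 had an unadjusted p under 0.05, against 4.63% of all genes. Their changes ran from −0.21 to 0.25 with a median of 0. Braf, a kinase of the MAP kinase cascade, had the smallest p (0.23, limma adjusted p = 0.904), with 1209, 1286 and 1479 in the knockout and 1212, 1076 and 1093 in the wild type, and a dimmer Braf probe set had 0.87 (limma adjusted p = 0.796, means of 243 in the knockout and 136 in the wild type). The 14 measured ERK feedback and ETS genes, which rise with MAP kinase activity, had a median of −0.06, 5 higher and 9 lower, with Spry1 at −0.31, Dusp6 at −0.15 and Etv5 at 0.10. The 18 immediate early genes had a median of 0.06, or −0.06 with centred arrays. Egr1, an activity-induced zinc finger factor, read 1563, 1116 and 1263 in NT4 knockout ganglia and 809, 843 and 1152 in NT4 wild-type ganglia (0.50, limma adjusted p = 0.890), an overlap made by knockout replicate 2 and wild-type replicate 3. For single genes of these lists changes below the half-width given above could not be told from 0, and larger ones could fail to pass.

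The measured genes beside Ntf5 held 2 of the larger differences on the arrays. Lhb, the beta subunit of luteinizing hormone and the next measured gene, read 168, 153 and 91.3 in NT4 knockout ganglia and 62.4, 67.4 and 62.8 in NT4 wild-type ganglia (1.05, SE 0.23, adjusted p = 0.596). It was below the array medians in both groups, and knockout replicate 3 was the lowest knockout array. Lin7b, a scaffold protein of synapses and cell junctions that lies 3 measured genes to the other side, read 504, 431 and 426 in the knockout and 1067, 881 and 908 in the wild type on 1449172_a_at (−1.07, SE 0.18, adjusted p = 0.375). Its brightest probe set, 1418683_at, read 650, 505 and 646 in the knockout and 1032, 803 and 884 in the wild type (−0.60, adjusted p = 0.852). On both the groups were separate, and the 2 other Lin7b probe sets overlapped (0.13 and −0.21). The brightest probe sets of the 8 other neighbours, 5 measured genes to each side, had changes of −0.09 to 0.15. Of the 17 probe sets of the 10 neighbours 3 had an unadjusted p under 0.05 (17.6%). For 25 genes to each side it was 10 of 81 (12.3%), for 50 it was 16 of 162 (9.88%), for all of chromosome 7 it was 5.40%, and the other chromosomes ranged from 4.37% to 6.08%. The 10 probe sets included 2 of Pih1d1, a cochaperone of protein complex assembly 15 genes away, at 1482, 1454 and 1464 in the knockout and 2060, 1578 and 1665 in the wild type on the brighter one (−0.26). Whether the DNA around Ntf5 differs between the knockout and wild-type embryos of the line was not tested.

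**Figure D2:**
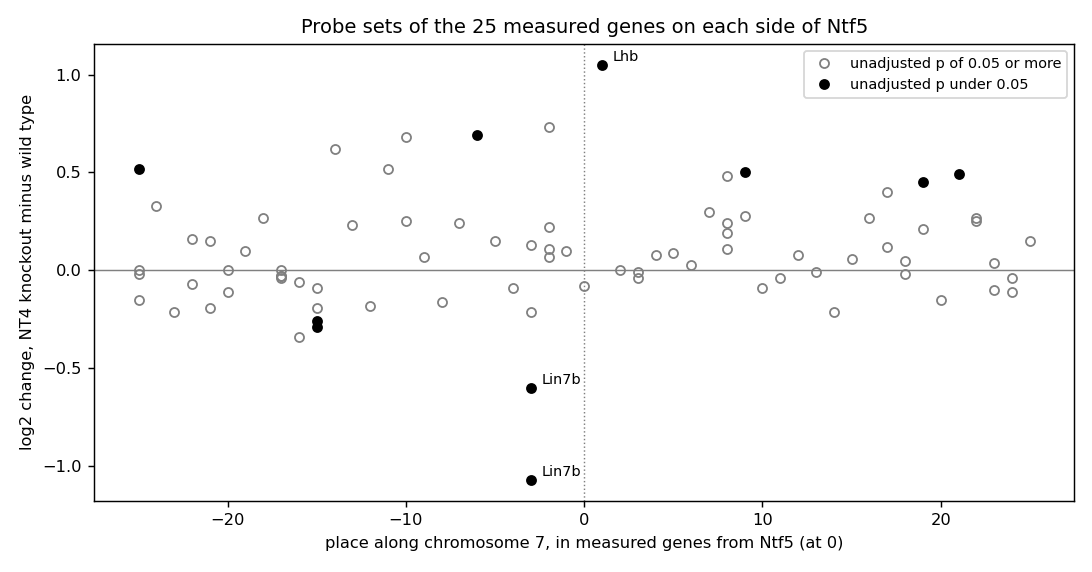
Log2 change, NT4 knockout minus NT4 wild type (vertical axis), of each probe set of Ntf5 and of the 25 measured genes on each side of it on chromosome 7, by place in measured genes (horizontal axis, Ntf5 at 0). Filled points have an unadjusted p under 0.05. Lhb at 1.05 is the highest and Lin7b at −1.07 the lowest point.

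Next in order of p, 15 genes on each side were taken among probe sets whose groups did not overlap and whose higher group mean was above the median of all probe sets. The absence of overlap is fixed by that choice, and some genes met the intensity rule only through the group where they were high. Among these were Dnali1, Dnttip1, Gpm6b, Tbx20, Cort and Rad51ap1 on the upper side and Gm7969, Klk1b24 and Anks1b on the lower. Apart from Slc6a2 none passed (adjusted p of 0.375 to 0.796). Of the 30 genes 24 had further probe sets on the array. For 11 of them another one had the same sign with an unadjusted p under 0.05, and for 1, Gpr135, the opposite sign. Of all genes with at least 2 probe sets 0.932% had 2 or more at that threshold in 1 direction, without such a choice by p. In the BDNF knockout, which has its own wild type, 17 of the 30 had the same sign. An unadjusted p under 0.05 was reached there by 8 of the 30. Of these Foxd1, Csf1r, Lepr, Tbx20, Klk1b24 and B3galt1 had the same sign as in the NT4 knockout, and Myo5b and Anks1b the opposite one. The same shares over all genes were not taken.

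On the upper side Tbx20, a T-box factor of heart and hindbrain motor neurons, read 434, 454 and 429 in NT4 knockout ganglia and 119, 120 and 206 in NT4 wild-type ganglia (1.61, SE 0.39). A second Tbx20 probe set read 153, 186 and 139 in the knockout and 59.7, 75.3 and 64.0 in the wild type (1.26), and the third was dim and overlapped (0.19). In the BDNF knockout their log2 changes were 0.97, 0.28 and 0.05 in this order. The other markers of motor neurons were dim and overlapped, with Slc18a3 at 140, 156 and 149 in the knockout and 129, 160 and 125 in the wild type, Chat at a change of −0.01 and Mnx1 at −0.41. Foxd1, a forkhead factor of mesenchyme, was even among the arrays of a group, with 1584, 1645 and 1534 in the knockout and 1011, 880 and 929 in the wild type (0.76, SE 0.15, adjusted p = 0.524). It has a single probe set, and in the BDNF knockout it stood at 0.40. The leptin receptor gene Lepr read 328, 376 and 357 in the knockout and 183, 226 and 240 in the wild type (0.72). Its other probe sets ran from −0.03 to 0.58. The phospholipid scramblase gene Plscr1 read 476, 527 and 452 in the knockout and 337, 271 and 305 in the wild type (0.67), and a second probe set had 0.75. Gpm6b, a membrane glycoprotein of neurons and glia, read 303, 212 and 415 in the knockout and 121, 111 and 139 in the wild type on 1 probe set (1.28), while its 2 other probe sets had −0.01 and 0.00. Dnali1, a dynein chain of cilia, was dim in the wild type and had a wide spread (2.33), with 410, 103 and 205 in the knockout and 90.8, 22.9 and 32.7 in the wild type. Its other probe set was dim in both groups and had 0.06.

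On the lower side Gabrg1, a subunit of the GABA-A receptor, was low on both of its probe sets. It read 724, 834 and 818 in NT4 knockout ganglia and 1277, 1339 and 1258 in NT4 wild-type ganglia on 1460408_at (−0.71, SE 0.13, adjusted p = 0.416), and 89.3, 80.2 and 86.2 in the knockout and 208, 206 and 224 in the wild type on 1427227_at (−1.32, SE 0.30, adjusted p = 0.717). The arrays of each group were close together on both. Reg3b, a secreted lectin, read 1704, 764 and 987 in the knockout and 2216, 2430 and 2176 in the wild type (−1.06, SE 0.27), and its other probe set had −1.18. Here the wild-type arrays were even and knockout replicate 1 was nearest to them. Crtac1, an extracellular calcium-binding protein, read 958, 931 and 1071 in the knockout and 1480, 1551 and 1697 in the wild type (−0.68). Its other probe sets ran from −0.59 to 0.30. Pcdh10, a protocadherin of axons and synapses, read 165, 224 and 189 in the knockout and 293, 366 and 330 in the wild type (−0.78), and 2 of its 5 other probe sets were lower too with an unadjusted p under 0.05. Racgap1, a protein needed for cell division, read 949, 982 and 970 in the knockout and 1451, 1485 and 1233 in the wild type (−0.52). Diras2, a Ras-like GTPase of neurons, read 614, 668 and 742 in the knockout and 1004, 1025 and 989 in the wild type (−0.58), though its other probe set had −0.06. Anks1b, a scaffold protein of the postsynaptic density, stood at −0.63 on 1 of 7 probe sets, and its others ran from −0.37 to 0.83.

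**Figure D3:**
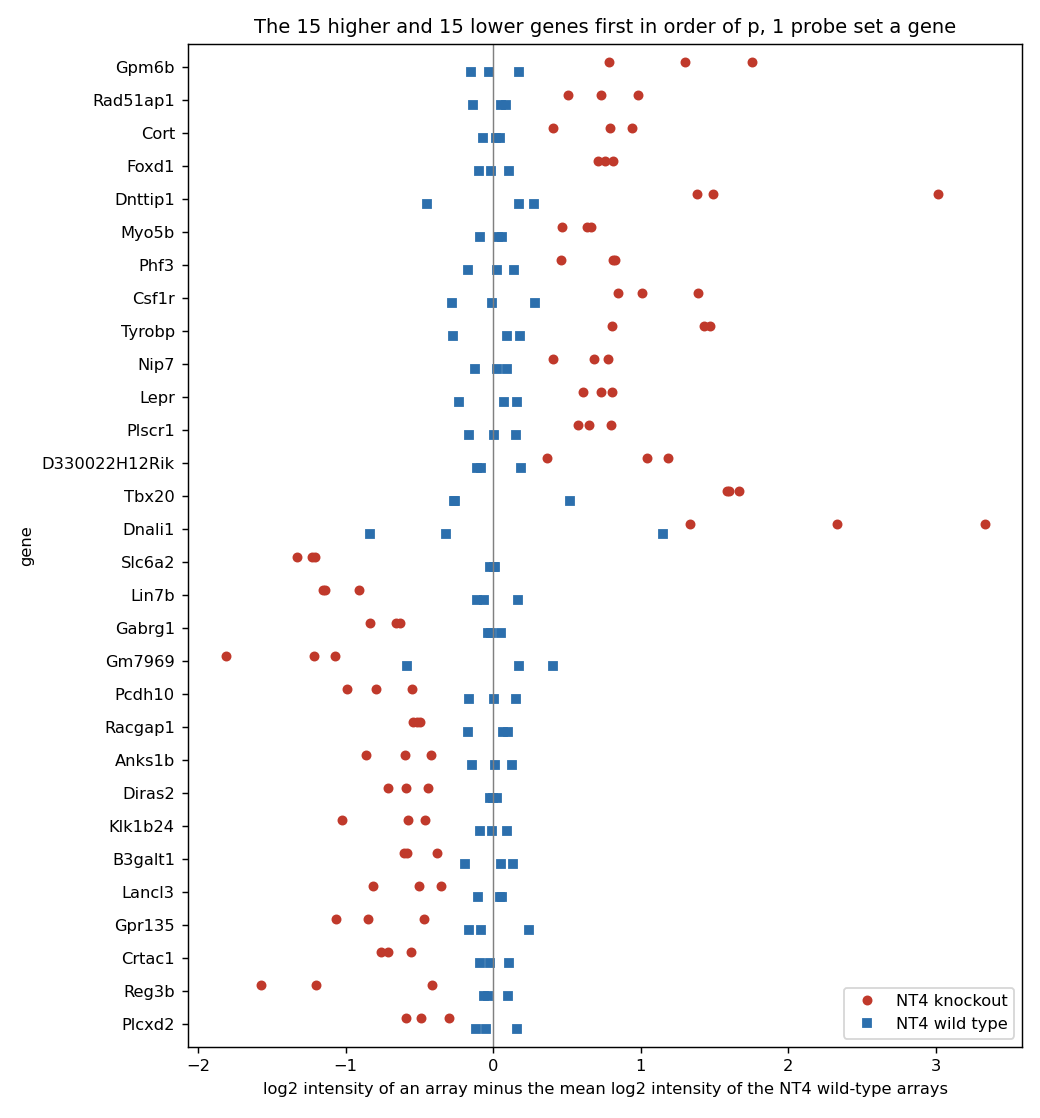
Log2 intensity of each array minus the mean log2 intensity of the 3 NT4 wild-type arrays (horizontal axis) for the 15 higher and 15 lower genes first in order of p (rows). Red circles are NT4 knockout arrays and blue squares NT4 wild-type arrays, 3 each. The groups are separate in every row because the rule required it, and the spread within a group is smallest for Slc6a2 and widest for Dnali1.

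Several probe sets of 1 gene read the same RNA and so check the probe sets, not the animals. Of 9010 genes with at least 2 probe sets 84 (0.932%) had 2 or more at an unadjusted p under 0.05 in the same direction, 54 higher and 30 lower, and for 13 genes such probe sets opposed each other. With centred arrays the counts were 16 higher and 129 lower. The total was 44 without NT4 wild-type replicate 1, 32 without wild-type replicate 2, 143 without wild-type replicate 3 and 149 without knockout replicate 1. Besides the genes above, Gnas, the stimulatory G protein alpha subunit, read 549, 496 and 497 in NT4 knockout ganglia and 256, 222 and 233 in NT4 wild-type ganglia on 1443375_at (1.12, adjusted p = 0.818). A further probe set had 1.01, but the brightest, 1450186_s_at, read 11848, 12426 and 12283 in the knockout and 11641, 11394 and 11781 in the wild type (0.07). Col12a1, a collagen of connective tissue, was higher on 3 of 4 probe sets at that threshold, with 728, 831 and 747 in the knockout and 332, 370 and 583 in the wild type on the brightest (0.89). App, the amyloid precursor gene, was lower on 2 very dim probe sets, while on the 2 bright ones it overlapped (0.03 and 0.04).

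The authors' deposited table for NT4 lists 671 probe sets besides 1 array control, 376 higher and 295 lower in the knockout. The smallest fold among the entries is 1.2, the smallest gap between group means is 50 and the highest unadjusted p is 0.0498, and applying these criteria to the deposited intensities returned the same 671. Since the authors chose the list on these arrays, it is no independent evidence. The groups did not overlap for 670 of the 671, but the criteria favour separate groups, so this is no separate result. Among all probe sets the groups were separate for 7.82% with the knockout above and 4.29% with it below. Among the 671 entries 450 had an unadjusted limma p under 0.05, and the 2 that passed here are among them. The median fold in the authors' deposited table was 1.36, and 38 higher and 13 lower entries reached 2-fold. Largest on the upper side of the authors' deposited table was Lgr5, a receptor of the R-spondins in epithelial stem cells, at 3.70-fold. It read 148, 130 and 170 in NT4 knockout ganglia and 30.3, 44.9 and 45.9 in NT4 wild-type ganglia, so the wild-type level was dim (limma log2 change 1.91, SE 0.53, adjusted p = 0.818). The other Lgr5 probe set had a limma log2 change of 0.23, with means of 60.0 in the knockout and 49.7 in the wild type. Ly86, an immune cell surface protein, had 2.79-fold in the authors' deposited table, with 92.1, 134 and 106 in the knockout and 36.0, 51.9 and 31.2 in the wild type. On the lower side the authors' deposited table gave the largest fold, −3.19, for Erich6, at 38.1, 28.8 and 14.0 in the knockout and 86.2, 62.1 and 110 in the wild type, dim in both (limma log2 change −1.75, SE 0.87). The same side held Slc6a2 at −2.50, Gabrg1 at −2.49 and, at −2.41, Ece2, a metalloprotease of the endothelin-converting enzyme family, in the authors' deposited table. Ece2 read 183, 136 and 55.2 in the knockout and 268, 296 and 336 in the wild type (−1.43, SE 0.45). Its other probe set had −0.27.

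No gene of the sensory neuron lists passed. Which cells of the ganglion hold the Slc6a2 RNA was not tested. Of the 14 measured visceral and gustatory sensory genes 0 passed in limma's fit, and 1 had an unadjusted p under 0.05, against 4.63% of all genes. Of the 14 genes 6 were higher, against 55.8% of all genes. The median log2 change was −0.05, against 0.03 for all genes by their brightest probe set. Htr3b, a subunit of the serotonin-gated channel of taste afferents, was dim, at 97.1, 73.6 and 42.1 in NT4 knockout ganglia and 124, 109 and 120 in NT4 wild-type ganglia (−0.81, SE 0.27, adjusted p = 0.852). Its partner Htr3a read 637, 1770 and 1229 in the knockout and 1594, 1795 and 1345 in the wild type, with a wide spread in the knockout (−0.49). Neurog2, a factor that specifies sensory neurons, was at the low end of the scale except on 1 array, with 166, 11.1 and 7.22 in the knockout and 7.42, 5.02 and 4.45 in the wild type (2.11). P2rx2, the partner of P2rx3 in taste afferents, read 974, 963 and 888 in the knockout and 1085, 1045 and 1057 in the wild type, separate by a small margin (−0.18, adjusted p = 0.953). The 15 measured somatosensory genes had a median of 0 and the 22 pan-neuronal genes −0.05, with 7 of 22 higher. Nefh, the heavy neurofilament subunit, read 718, 730 and 621 in the knockout and 915, 886 and 914 in the wild type (−0.40, limma adjusted p = 0.895). Summed over the 22 pan-neuronal genes the intensity was 147246, 164284 and 163841 on knockout arrays and 166688, 164934 and 157068 on wild-type arrays. Glial genes had a median of 0.05 over 22 measured members, or −0.06 with centred arrays, with Sox10 at 0.10 and Fabp7 at −0.05.

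Among 32 measured neuropeptide genes 0 passed, while at an unadjusted p under 0.05 the higher members numbered 5 and the lower members 2, against 3.08% higher and 1.54% lower of all genes. Tac1, the precursor of substance P, was by far the brightest of these and read 4630, 4644 and 4736 in NT4 knockout ganglia and 6118, 6138 and 5589 in NT4 wild-type ganglia. Both groups were tight and separate (−0.35, SE 0.11, adjusted p = 0.852). A further Tac1 probe set was dim and had 0.01. Cort, the cortistatin precursor, read 267, 184 and 241 in the knockout and 133, 141 and 144 in the wild type (0.71, adjusted p = 0.524). Gal, galanin, read 348, 373 and 452 in the knockout and 295, 230 and 278 in the wild type (0.54). Calcb, a calcitonin gene-related peptide precursor, was dim, at 43.1, 47.2 and 52.0 in the knockout and 26.5, 31.7 and 25.7 in the wild type (0.77). Trh, thyrotropin-releasing hormone, read 261, 190 and 229 in the knockout and 324, 407 and 268 in the wild type (−0.55).

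Channel, receptor and guidance lists had medians near that of all genes. Of their 158 measured members 11 were separate above and 11 below (6.96% each), against 6.71% and 4.77% of all genes. Examples besides Gabrg1 were Grm7, a metabotropic glutamate receptor, at 761, 894 and 763 in NT4 knockout ganglia and 1045, 985 and 1079 in NT4 wild-type ganglia (−0.37, adjusted p = 0.822), and Cacna2d2, an auxiliary calcium channel subunit, at 3343, 3672 and 3535 in the knockout and 3029, 2897 and 2675 in the wild type (0.30, adjusted p = 0.852). Their other, dimmer probe sets had 0.46 and 0.22 for Grm7 and −0.40 and 0.19 for Cacna2d2. Nrp2, a semaphorin and VEGF receptor, read 2312, 2700 and 2462 in the knockout and 1670, 1768 and 2135 in the wild type (0.43, adjusted p = 0.852). Epha3, an ephrin receptor, read 1422, 1524 and 1569 in the knockout and 1726, 1825 and 2390 in the wild type (−0.38, adjusted p = 0.857). The list medians were −0.03 for 20 GABA and glycine receptors, −0.01 for 21 glutamate receptors, 0.02 for 27 sodium and calcium channels, 0.07 for 39 potassium channels, 0.08 for 31 semaphorins and their receptors and 0.05 for 20 ephrins and Eph receptors.

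**Figure D4:**
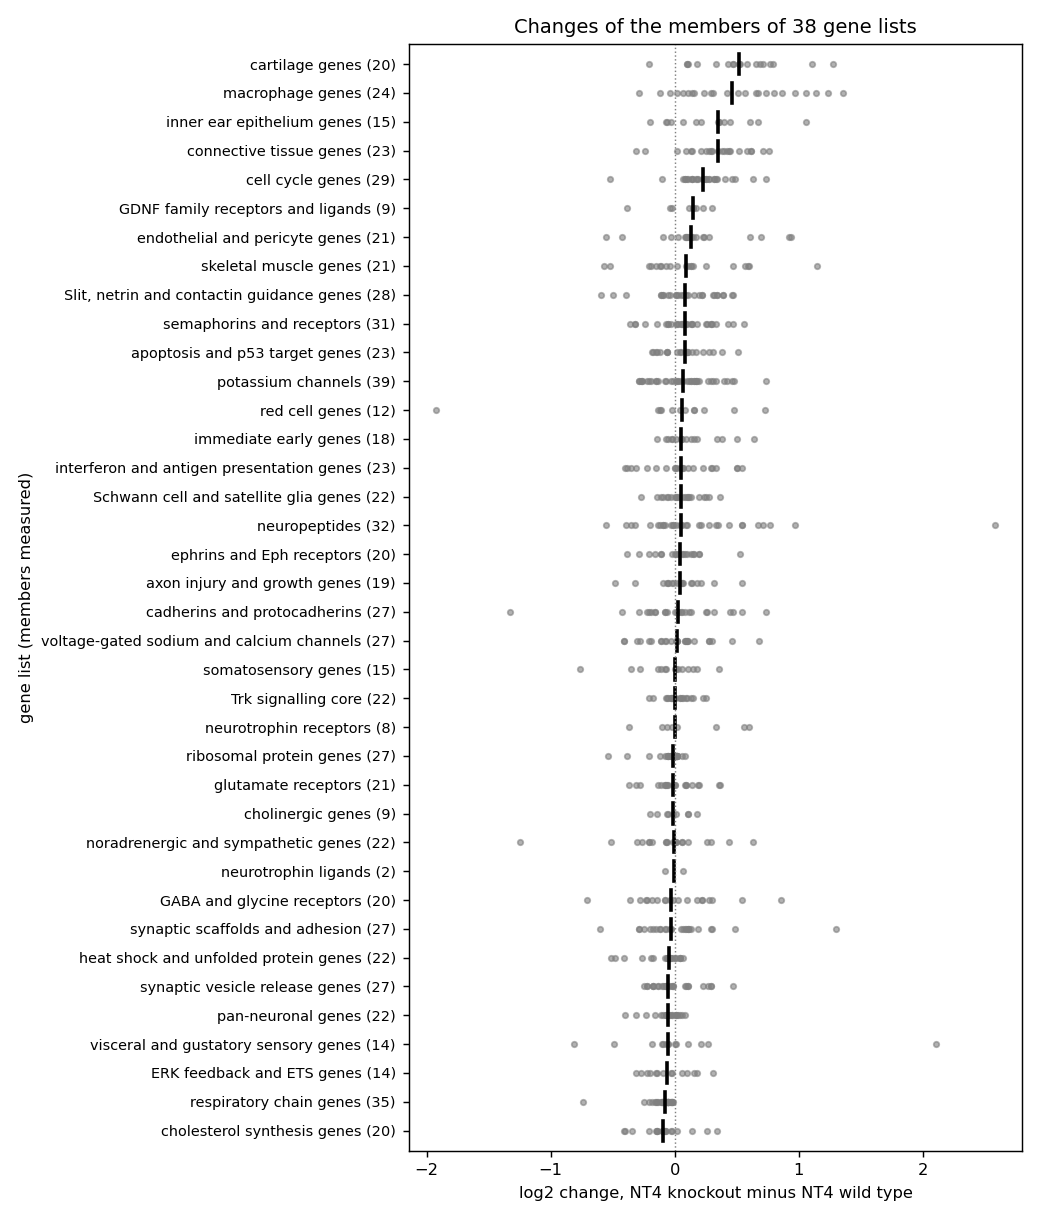
Log2 change, NT4 knockout minus NT4 wild type (horizontal axis), of every measured member (grey points, by its brightest probe set) of 38 gene lists, the sex-linked genes left out (rows, with the number measured), ordered by the median (black bar). Most medians lie within 0.1 of 0, and the cartilage (0.52), macrophage (0.47), inner ear (0.35), connective tissue (0.35) and cell cycle (0.23) lists lie to the right.

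Genes of cells around the neurons made up the lists with the highest medians apart from the sex-linked genes, without a member that passed. Of 24 macrophage genes 21 were higher, against 55.8% of all genes, with a median log2 change of 0.47. An unadjusted p under 0.05 was reached by 7, all higher, against 4.63% of all genes in either direction. Tyrobp, an adaptor of macrophages and microglia, read 1360, 1320 and 859 in NT4 knockout ganglia and 406, 524 and 557 in NT4 wild-type ganglia (1.24, SE 0.27, adjusted p = 0.596). Csf1r, the receptor of macrophage colony-stimulating factor, read 1089, 1345 and 779 in the knockout and 285, 450 and 527 in the wild type (1.36, adjusted p = 0.796), with knockout replicate 3 the lowest and wild-type replicate 3 the highest of its group in both genes. Cd53, a leukocyte tetraspanin, read 1190, 818 and 755 in the knockout and 356, 365 and 622 in the wild type (1.06), and the complement gene C1qb read 1069, 1296 and 630 in the knockout and 438, 434 and 617 in the wild type (0.97). The summed intensity of the 24 genes was 10777, 10719 and 7645 on knockout arrays and 5040, 5424 and 7642 on wild-type arrays, so those numbered 3 were nearly equal. In the BDNF knockout 17 of the 24 were above 0, against 44.6% of all genes, with a median of 0.16. There Csf1r stood at 1.38, and Tyrobp, Cd53 and C1qb stood at 0.49, 0.28 and 0.16.

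Of 20 cartilage genes 19 were higher (median 0.52), and their sums were 36071, 17310 and 26312 on NT4 knockout arrays and 15597, 18731 and 18822 on NT4 wild-type arrays. These overlapped, and knockout replicate 1 was the highest. Acan, the large cartilage proteoglycan, read 1645, 519 and 858 in the knockout and 296, 444 and 389 in the wild type (1.28, SE 0.67), and Sox9, the regulator of cartilage formation, read 1217, 862 and 726 in the knockout and 457, 524 and 762 in the wild type (0.69, adjusted p = 0.858). Without knockout replicate 1 the cartilage median was 0.31. Of 23 connective tissue genes 21 were higher (median 0.35, 0.68 without wild-type replicate 3 and 0.21 without wild-type replicate 2). Of these 23 genes 1 had an unadjusted p under 0.05, against 4.63% of all genes. The sums were 59780, 44645 and 49486 on knockout arrays and 34753, 33474 and 58140 on wild-type arrays. Wild-type replicate 3 thus lay with the knockout arrays. Pdgfra, a receptor of mesenchymal cells, read 1845, 1584 and 1663 on knockout arrays and 882, 695 and 2366 on wild-type arrays. Of 15 inner ear epithelium genes 11 were higher (median 0.35, and 0.13 without knockout replicate 2). An unadjusted p under 0.05 was reached by 1 of them, against 3.08% of all genes that were higher at that threshold. The sums were 2835, 3058 and 2546 on knockout arrays and 2247, 2262 and 2292 on wild-type arrays, which were separate. Lmx1a, a factor of the otic vesicle, was very dim, at 16.5, 13.2 and 36.4 in the knockout and 8.21, 10.6 and 9.98 in the wild type (1.06). In the BDNF knockout 14 of the 20 cartilage genes were above 0 (median 0.10), against 44.6% of all genes. Of the connective tissue genes 20 of 23 were above 0 there (median 0.20), and of the inner ear genes 9 of 15 (median 0.06). The part of these cell types in the other differences was not tested.

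**Figure D5:**
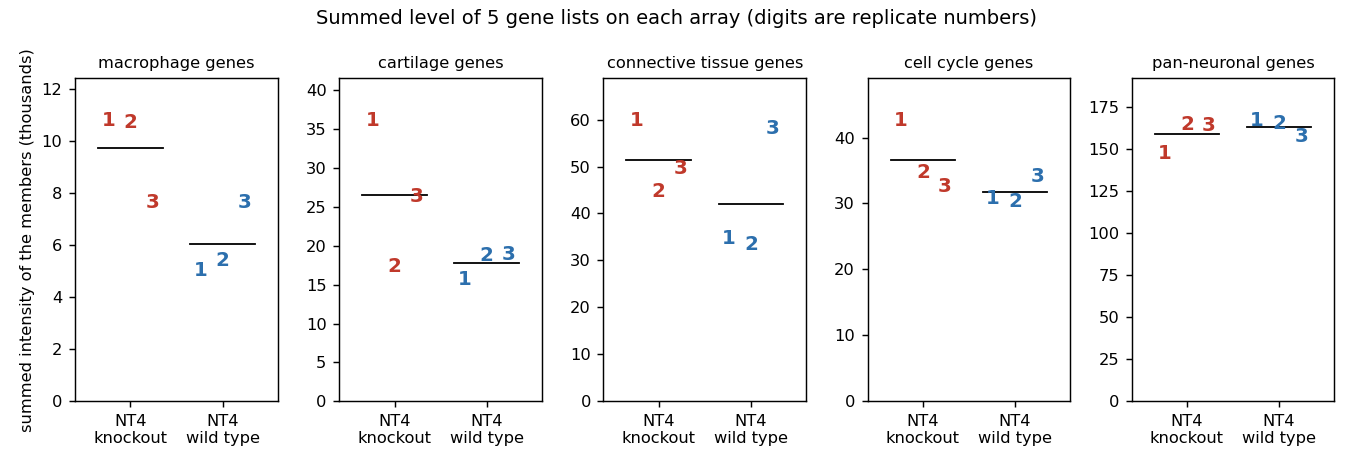
Summed deposited intensity, divided by 1000, of the measured members of 5 gene lists (panels, each axis starting at 0) on NT4 knockout arrays (left, red) and NT4 wild-type arrays (right, blue). Digits are replicate numbers and bars the group means. Knockout replicate 1 is highest for cartilage, connective tissue and cell cycle genes, wild-type replicate 3 lies with the knockout arrays for connective tissue, and the pan-neuronal sums overlap.

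Cell cycle genes were higher in 27 of 29 cases (median 0.23, and 0.09 without NT4 knockout replicate 1), and at an unadjusted p under 0.05 there were 4 on the higher side and 1 on the lower, against 3.08% and 1.54% of all genes, of which 55.8% were above 0. Mcm3, a subunit of the replicative helicase, read 1382, 1515 and 1350 in NT4 knockout ganglia and 901, 1062 and 1072 in NT4 wild-type ganglia (0.49, limma adjusted p = 0.857), and Cdc20, an activator of the anaphase-promoting complex, read 1340, 909 and 1006 in the knockout and 707, 649 and 723 in the wild type (0.63). The list's lower member was Racgap1. The summed levels were 42569, 34654 and 32506 on knockout arrays and 30709, 30376 and 34054 on wild-type arrays, and they overlapped.

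Genes of the respiratory chain gave mostly small values of 1 sign. All 35 measured were below 0, while 55.8% of all genes were above it. The median was −0.08, and 0 members had an unadjusted p under 0.05 in limma's fit, against 4.63% of all genes. The median stayed between −0.19 and −0.05 under every alternative tried. Some other lists leaned the same way. Below 0 were 18 of 27 ribosomal protein genes, 16 of 22 heat shock and unfolded protein genes and 18 of 27 synaptic vesicle genes. As said above, a small change of 1 sign shared by many genes cannot be read from these values. Cox5a, a subunit of cytochrome c oxidase, read 5379, 5616 and 5121 in NT4 knockout ganglia and 5984, 6004 and 6004 in NT4 wild-type ganglia (−0.16, SE 0.09), a difference smaller than the median half-width above. Cyc1, cytochrome c1, read 2601, 2680 and 2449 in the knockout and 2793, 3105 and 3043 in the wild type (−0.21). The 20 cholesterol synthesis genes had a median of −0.09, 16 of them lower. There Stard4, a carrier of cholesterol, read 758, 691 and 737 in the knockout and 903, 1032 and 948 in the wild type (−0.40, SE 0.10, adjusted p = 0.796). Its other probe sets had 0.30 and −0.05. In all lists together 1 of 787 measured genes passed, and at an unadjusted p under 0.05 there were 30 on the higher and 17 on the lower side, shares of 3.81% and 2.16% against 3.08% and 1.54% of all genes.

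Whether NT4 and BDNF differ in effect was tested as the NT4 effect minus the BDNF effect, which share no control arrays. The NT4 line is on strain 129 and the BDNF line on C57BL/6J, so the removed ligand and the strain cannot be told apart in this test. Of 45037 probe sets 5 passed (0.0111%). Any single array left out lowered that count, to between 1 and 4. For Slc6a2 the difference was −1.38 (adjusted p = 0.0306), as its probe set read a mean of 6389 in BDNF knockout ganglia and 5837 in BDNF wild-type ganglia, a log2 change of 0.12 there. The wild types themselves differed in level, at 2172 in the NT4 line. For 1441692_at it was 1.63 (adjusted p = 0.0413), with a BDNF change of −0.32. The other 3 were Bdnf itself (1422168_a_at), Bloc1s6 and 1446755_at, which had NT4 changes of 0.05, 0.08 and −0.02 and BDNF changes of −3.18, 3.42 and −4.71. For Th the NT4 change of −0.51 stood beside a BDNF change of 0.69, a difference of −1.20 that did not pass (adjusted p = 0.708). For Gabrg1 the difference was −0.97 on 1460408_at (adjusted p = 0.368) and for Gpm6b it was 1.70 (adjusted p = 0.368).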

How the data were processed

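RNA of 12 samples was extracted with a column kit and DNase I, amplified, fragmented and biotinylated, 1 Affymetrix array per sample, per the labels' protocols. The deposited value table gives 1 linear intensity per probe set and array, made by the authors. The sources used here state neither the background correction nor the scaling between arrays. The authors' deposited list gives means, a signed fold change (a score below 0 where the knockout was lower) and an unadjusted p-value, per the file headers. After 64 array controls were left out, log2 of each intensity was taken with no offset and 4 group means were fitted over all 12 arrays with limma 3.58.1 in R 4.3.3 (lmFit, eBayes, residual degrees of freedom 8, prior 2.27), two-sided, with Benjamini-Hochberg adjustment over 45037 probe sets and a threshold of 0.05. Arrays carry no counts, so their number limits precision.

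The annotation gave 1 gene symbol for 34945 probe sets, several for 932 and none for 9160, and 34741 matched RefSeq's genes on GRCm38.p6, used for names, chromosomes and gene order only. Each gene of a list was represented by its brightest probe set. The 39 lists held 873 genes, of which 787 were measured. The members, lists, naming rule and tests were chosen with earlier results of these data known. The genes named are neurotrophin ligands and receptors, called probe sets, the first 15 in each direction by p with separate groups and 1 symbol above the median intensity, up to 5 members of a list by p and the cell type markers, the 5 largest of the authors' list in each direction, up to 10 genes in each direction with several probe sets, and neighbours of Ntf5. Other members are given as examples of their list. Alternatives were the NT4 line alone, quantile normalization, centring, an offset of 16, a filter at an intensity of 50 on 3 arrays, a variance trend, a replicate block, each array left out, a t-test and the authors' criteria. Leaving out the 2 arrays of low Y-linked signal (replicate 2 of each wild type) was added after seeing the data.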

Additional observations from a re-analysis of the deposited data

Results flagged for a closer look

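The test of the NT4 effect minus the BDNF effect passed for 5 probe sets, all measured with 3 arrays a group and limma's adjusted p over 45037 probe sets. Slc6a2 differed by −1.38 (adjusted p = 0.0306), lower in all 3 NT4 knockout arrays than in any NT4 wild-type array. The probe set 1441692_at, with no gene symbol, differed by 1.63 (adjusted p = 0.0413), higher in all 3 NT4 knockout arrays. Bdnf differed by 3.23 on 1422168_a_at (adjusted p = 0.0306), 1446755_at by 4.69 (adjusted p = 0.0306) and Bloc1s6 by −3.35 (adjusted p = 0.00450). In these 3 the NT4 groups overlapped, and the BDNF effects were the large ones. The 2 lines are of different strains, so ligand and strain cannot be told apart in these differences.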

How the results depend on the processing

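All values here are from limma unless said otherwise. The 2 calls of the NT4 comparison became 0 with the 6 arrays of the line alone (2972 at an unadjusted p under 0.05), 1 with centred arrays, 1 with a variance trend, 0 with the replicate block (2496 unadjusted) and 0 without the 2 arrays of low Y-linked signal (1610 unadjusted). They were 0 to 5 with single arrays left out. A two-sample t-test gave 2698 at an unadjusted p under 0.05 and 0 after Benjamini-Hochberg, and the authors' criteria gave 671. List members called went to 0 with the line alone, the block and without those 2 arrays, and were 0 to 1 with single arrays left out. Genes with several probe sets moving 1 way numbered 145 with centred arrays, 32 without those 2 arrays, and 32 to 149 with single arrays left out. Calls of the difference between the knockouts were 3 with centred arrays, 0 with the block (2672 unadjusted), 1 without those 2 arrays, and 1 to 4 with single arrays left out. Whether replicate numbers pair the samples could not be decided. In the NT4 line deviations from the group means correlated at −0.25, 0.15 and −0.05 between same-numbered arrays. Between other arrays of the 2 groups they correlated at −0.16 to 0.21, and so few values cannot exclude pairing.

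Of the named probe sets those near 0 turned sign in some settings, 61 times in all, and none of these passed in either. Quantile normalization gave −0.02 and −0.04 for Bdnf 1422168_a_at and 1422169_a_at, −0.01 for Slc18a3 and Hand2 and −0.10 for Dbh. Centring gave −0.11 for Tubb3, −0.09 and −0.07 for App, −0.06 and −0.05 for Bdnf, 0.00 for Slc18a3 and Hand2, −0.05 for Sort1 1423362_at, −0.10 for Dbh, Ngfr and Avil, −0.05 for Pou4f1, −0.01 for Etv5 and Sox10 and −0.04 for Gnas 1450186_s_at and Bloc1s6. With single arrays left out the log2 change ran from −0.01 to 0.07 and from −0.09 to 0.19 for the bright probe sets of App, −0.06 to 0.10 for Avil, −0.05 to 0.17 for Pou4f1, −0.22 to 0.28 and −0.12 to 0.19 for those of Bdnf, −0.20 to 0.23 for Chat, −0.32 to 0.21 for Dbh, −0.09 to 0.29 for Etv5, −0.52 to 0.38 for Gata3, −0.07 to 0.27 for Lin7b 1439239_at, −0.22 to 0.07, −0.02 to 0.08 and −0.09 to 0.00 for Ngfr, −0.21 to 0.02 for Ntf5, −0.08 to 0.04 for Ntrk2 1435305_at, −0.17 to 0.01 for Phox2a, −0.11 to 0.20 for Slc18a2, 0.00 to 0.15 for Sort1 1423362_at, −0.02 to 0.03 for Tubb3 and −0.22 to 0.21 for 1446755_at. Without those 2 arrays Ngfr 1421241_at had 0.07, Avil −0.05, App −0.02, Ntrk2 0.00 and Chat 0.03. The cause was not tested. With 3 arrays a group the median half-width of an unadjusted 95% interval, 0.45 on the log2 scale, limits what could be detected. The adjusted threshold asked for larger changes still.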
